A study of Mus musculus with 20 samples.

Results

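The windows described here surround the autosomal microRNA (miRNA) genes of the mouse. GENCODE release 21 lists 1084 autosomal genes of type miRNA whose names start with Mir on mm10, and each was extended by 5000 bp on either side. Merging overlapping windows left 854 windows, of which 775 hold 1 gene and 79 hold more. A protein-coding transcript starts within 291 of them (341 genes), and these were set apart because a peak there can belong to the coding gene. The remaining 563 windows (743 genes) hold no coding start. Of these, 77 hold the start of a long noncoding RNA (lncRNA), 351 have their miRNA inside a coding gene, and 135 have it outside coding genes.

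The peaks come from ChIP-Seq of lineage-negative (Lin-) bone marrow cells, which are marrow cells left after removal of mature blood cells, with a stated purity above 80%. WT mice were Ep300 fl/fl without Cre. Ep300Δ/Δ mice were Mx1-Cre;Ep300 fl/fl, Tet2-/- mice were Ep300 fl/fl;Tet2-/-, and Ep300Δ/ΔTet2-/- mice were Mx1-Cre;Ep300 fl/fl;Tet2-/-, all on a C57BL/6 background and of both sexes. All 4 genotypes received 3 doses of poly(I:C) at 6 to 8 weeks of age, which switches on the interferon-responsive Mx1-Cre, so the controls carry this interferon stimulus too. Cells were studied from 2 weeks after the injections. Each library used 5 μg of chromatin, and whether mice were pooled is not given in the sources used here. Every combination of the 4 genotypes and 3 marks has a single library (12 peak lists), and without replicates no test between genotypes was possible. The genes Ep300 and Tet2 cannot be checked for their deletion from peak lists.

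p300, encoded by Ep300, acetylates histone H3 at lysine 27 (H3K27ac), a mark of active promoters and enhancers. H3K4me1 marks enhancers, active or not, and H3K4me3 marks promoters. miRNAs are short RNAs cut from a hairpin in a longer primary transcript, and they pair with messenger RNAs mainly through the seed, bases 2 to 8 of the mature strand, to lower their output. Many hairpins lie in introns of coding genes or in noncoding host transcripts whose promoter can lie far from the hairpin, so a window of this width need not hold the promoter. Several miRNAs steer blood formation, among them miR-142 in most blood cells, miR-155 in activated immune cells and miR-144 and miR-451a in red cell precursors.

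The mature strands of the miRNAs on which the results turn are shown first, because 1 seed can be made from several genes whose chromatin differs. Of the 1084 genes, 931 had an entry of the same symbol in RefSeq (GRCm38.p6). In the sequences below the capitals mark the seed. Members of a shared seed follow each other: miR-146a and miR-146b carry GAGAACU, and miR-181a is made by both Mir181a-1 and Mir181a-2.
miR-146a-5p: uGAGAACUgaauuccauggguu
miR-146b-5p: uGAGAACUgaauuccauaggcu
miR-181a-5p: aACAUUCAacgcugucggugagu
miR-23a-3p: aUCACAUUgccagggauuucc
miR-27a-3p: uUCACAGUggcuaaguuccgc
miR-29a-3p: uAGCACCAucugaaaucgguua
miR-142a-3p: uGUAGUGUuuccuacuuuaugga
miR-155-5p: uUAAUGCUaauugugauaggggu
miR-21a-5p: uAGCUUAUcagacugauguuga
miR-22-3p: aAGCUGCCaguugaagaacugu
miR-144-3p: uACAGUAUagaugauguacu
miR-451a: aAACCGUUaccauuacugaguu
miR-126a-3p: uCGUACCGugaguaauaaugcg
miR-130a-3p: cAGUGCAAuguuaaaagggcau
miR-192-5p: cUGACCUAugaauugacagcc

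The 4 stretches below show where peaks fell on the DNA itself (GRCm38.p6, each 151 bp centered on a summit). The first 3 are summits on or beside a hairpin, with the mature strands in capitals, and the last is the strongest WT H3K27ac summit of the Mir23a window, with a match to TGTGGT on the other strand in capitals.
Mir21a, H3K27ac summit in Tet2-/-, chr11:86584107-86584257, minus strand: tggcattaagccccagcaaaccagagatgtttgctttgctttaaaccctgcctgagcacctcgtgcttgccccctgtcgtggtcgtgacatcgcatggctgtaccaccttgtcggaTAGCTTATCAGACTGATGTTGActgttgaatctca
Mir144, H3K27ac summit in Ep300Δ/ΔTet2-/-, chr11:78072987-78073137, plus strand: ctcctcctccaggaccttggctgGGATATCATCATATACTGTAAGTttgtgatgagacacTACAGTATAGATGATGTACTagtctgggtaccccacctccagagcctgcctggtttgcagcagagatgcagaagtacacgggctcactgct
Mir155, H3K4me1 summit in Tet2-/-, chr16:84714119-84714269, plus strand: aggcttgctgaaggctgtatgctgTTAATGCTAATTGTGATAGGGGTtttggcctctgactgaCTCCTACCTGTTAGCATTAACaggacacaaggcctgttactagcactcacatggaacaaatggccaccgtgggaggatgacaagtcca
Mir23a, H3K27ac summit in WT, chr8:84203870-84204020, plus strand: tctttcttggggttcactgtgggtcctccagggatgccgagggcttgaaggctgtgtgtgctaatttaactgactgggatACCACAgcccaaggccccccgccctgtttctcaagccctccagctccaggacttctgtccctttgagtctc

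Before the results, 3 properties of the lists need stating. The H3K27ac lists differ in length, from 29012 autosomal peaks in WT to 23970 in Tet2-/-, 22190 in Ep300Δ/Δ, and 17846 in Ep300Δ/ΔTet2-/-, and read depth cannot be had from them. Although a q under 0.05 is stated, 0.137% to 7.24% of the peaks of a list have a larger q, most in the Ep300Δ/Δ H3K27ac list. At the promoters of genes that mark cell types, H3K27ac was present at 10, 10, 9, and 9 of 10 stem and progenitor genes in WT, Ep300Δ/Δ, Tet2-/-, and Ep300Δ/ΔTet2-/- cells. The same counts were 3, 3, 2, and 2 of 5 for mature myeloid and erythroid genes, and 1, 1, 0, and 0 of 8 for genes of other tissues.

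Most miRNA windows without a coding start carried none of the 3 marks: 356 of 563 in WT, 369 in Ep300Δ/Δ, 346 in Tet2-/-, and 352 in Ep300Δ/ΔTet2-/- cells. H3K27ac was present in 57 windows in WT (10.1%, exact 95% interval 7.76% to 12.9%). It was present in 35 windows in Ep300Δ/Δ (6.22%), 44 in Tet2-/- (7.82%), and 33 in Ep300Δ/ΔTet2-/- cells (5.86%, interval 4.07% to 8.13%). The intervals cover counting error only, over windows and not over mice. With the 4 lists cut to equal length, the counts were 27 in WT, 26 in Ep300Δ/Δ, 31 in Tet2-/-, and 33 in Ep300Δ/ΔTet2-/- cells. As a background, 212882 autosomal tiles of 10 kb without a coding start and outside the miRNA windows were scored in the same way. In the 4 lists as deposited, 4.05%, 2.37%, 3.40%, and 2.28% of them held H3K27ac, below the interval of the miRNA windows in each. The 2 sets differ in composition: 351 of 563 windows and 84121 of 212882 tiles fall in the class inside coding genes. Within windows whose miRNA lies inside a coding gene, 42 of 351 held H3K27ac in WT (interval 8.76% to 15.8%), against 5.90% of tiles in coding genes. Outside coding genes the shares were 5.93% and 2.35%, and over lncRNA starts 9.09% and 11.1% (11.7% and 9.82% in Tet2-/- cells). In WT, windows thus stood above tiles in the first 2 classes and not over lncRNA starts. The first 2 classes were not drawn alike. A window was placed by its miRNA and a tile by any overlap with a coding gene, so these shares do not compare like with like.

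With the lists as deposited, the methylation marks varied less across the genotypes than H3K27ac. The range of H3K27ac narrowed to 26 to 33 windows with lists of equal length. H3K4me1 was present in 200, 185, 200, and 203 of the 563 windows in WT, Ep300Δ/Δ, Tet2-/-, and Ep300Δ/ΔTet2-/- cells (32.9% to 36.1%, against at most 14.8% of tiles). H3K4me3 was present in 70, 70, 79, and 67 windows (11.9% to 14.0%, against 3.34% to 3.87% of tiles). In WT, all but 1 of the 57 acetylated windows also held H3K4me1 (23 without H3K4me3 and 33 with it). H3K27ac with neither methyl mark was found in 5 windows in Tet2-/- cells and in none in the other 3 genotypes. H3K4me1 alone was the most frequent state after no mark, at 114 WT windows. Tiles were not scored for combinations of marks, so these counts have no background and were not tested. Of the 291 windows over a coding start, 186 held H3K27ac in WT, 169 in Ep300Δ/Δ, 172 in Tet2-/-, and 166 in Ep300Δ/ΔTet2-/- cells (57.0% to 63.9%, against 32.1% to 36.5% of tiles).

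**Figure D1:**
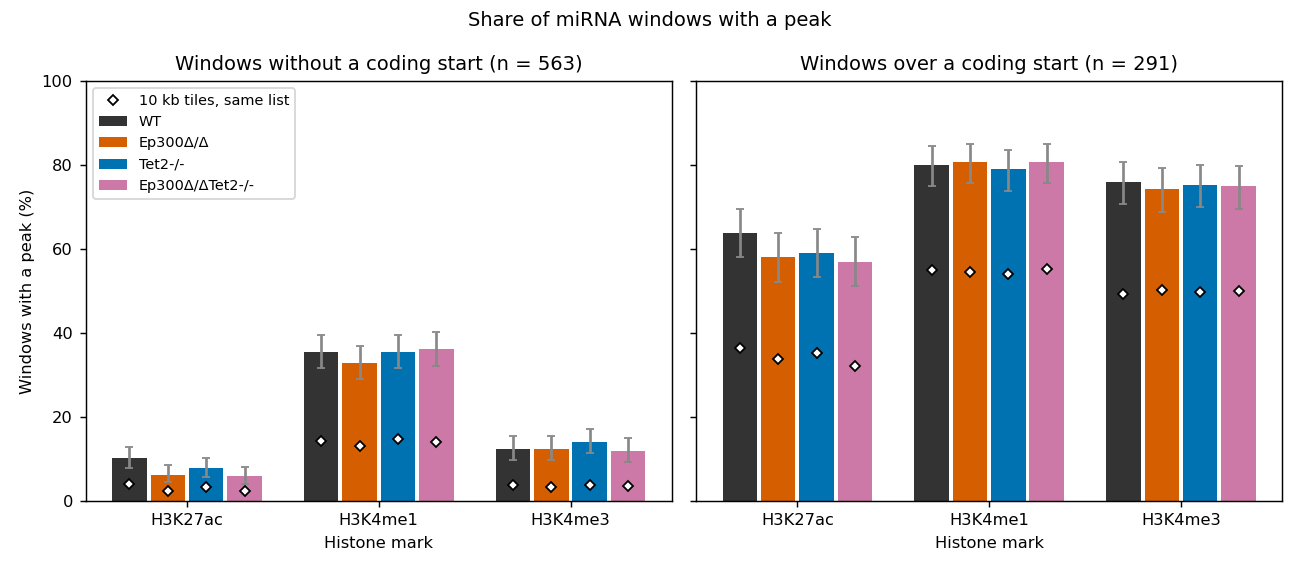
Bars give the percentage of miRNA windows with a peak by mark and genotype, in windows without (left) and over (right) a coding start, with exact 95% intervals over windows. Diamonds give the percentage of 10-kb tiles of the same class, which for H3K27ac without a coding start lie between 2.28% and 4.05%, below all 4 bars.

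The distance from each gene to its nearest summit was measured next. For 68 genes without a coding start in their window that had an H3K4me3 summit within 5000 bp in WT, the median distance from the gene start to the nearest summit was 670 bp, and it lay upstream in 42. In the other 3 genotypes the median H3K4me3 distance was 1415 to 1428 bp. For H3K27ac the WT median was 2107 bp over 65 genes, with 36 nearest summits upstream, and for H3K4me1 it was 1523 bp over 211 genes. In Ep300Δ/Δ, Tet2-/-, and Ep300Δ/ΔTet2-/- cells the medians were 1916, 1729, and 2160 bp for H3K27ac and 1439, 1451, and 1473 bp for H3K4me1, so the medians of the methyl marks stood apart in WT and close together in the other 3. Most acetylation therefore did not sit on the hairpin: of 743 genes, 13, 10, 11, and 13 were themselves under an H3K27ac peak in WT, Ep300Δ/Δ, Tet2-/-, and Ep300Δ/ΔTet2-/- cells.

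Among the windows without a coding start, Mir21a had the highest H3K27ac fold in WT. miR-21 is a growth-promoting miRNA raised in many cancers, and its hairpin lies inside Vmp1. The highest H3K27ac fold enrichment over the H3 library in the Mir21a window (chr11:86579067-86589158) was 49.1 in WT, 36.5 in Ep300Δ/Δ, 50.8 in Tet2-/-, and 40.5 in Ep300Δ/ΔTet2-/- cells. Folds describe 1 list each and are not amounts to compare across libraries, so each is also placed among the peaks of its own list: at percentiles 99.2, 99.3, 99.6, and 98.6. That summit lay upstream of the gene start in every list, at -2370 bp in WT, -2355 bp in Ep300Δ/Δ, -2365 bp in Tet2-/-, and -2372 bp in Ep300Δ/ΔTet2-/- cells. Next in WT came Mir339 (28.7, percentile 95.4), Mir7681 (23.7, percentile 92.9), Mir7671 (22.1, percentile 91.8), and the Mir23a cluster (21.9, percentile 91.7), all acetylated in the 4 genotypes. Mir7681, inside Hecw2, stood at percentiles 34.2 in Ep300Δ/Δ, 55.2 in Tet2-/-, and 66.1 in Ep300Δ/ΔTet2-/- cells. These 5 windows were named for their WT fold and the lists differ in length, so a lower place outside WT is not read as a change. Its H3K4me3 was called in WT and Tet2-/- cells only.

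A second feature of the Mir21a window was a narrow peak on the hairpin itself. Peaks of at most 300 bp covered Mir21a in 9 of the 12 lists, with widths of 178 to 295 bp. They were in H3K27ac of Ep300Δ/Δ, Tet2-/-, and Ep300Δ/ΔTet2-/- cells, in H3K4me1 of WT, Ep300Δ/Δ, and Tet2-/- cells, and in H3K4me3 of the same 3. In the Ep300Δ/ΔTet2-/- H3K4me3 list the peak over the hairpin was 645 bp wide. No other miRNA gene without a coding start was under such a peak in more than 4 lists, and 24 of 743 were in at least 1. Mir155 was one of them, with H3K4me1 peaks of 268, 290, and 261 bp on the hairpin in Ep300Δ/Δ, Tet2-/-, and Ep300Δ/ΔTet2-/- cells and none in WT. Their folds were 6.89, 11.5, and 9.05. Mir20a and Mir19b-1, neighbors in the Mir17 cluster, shared 1 narrow H3K4me1 peak in WT, Ep300Δ/Δ, and Ep300Δ/ΔTet2-/- cells. Peaks of at most 300 bp made up 11.3% to 32.5% of each list.

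**Figure D2:**
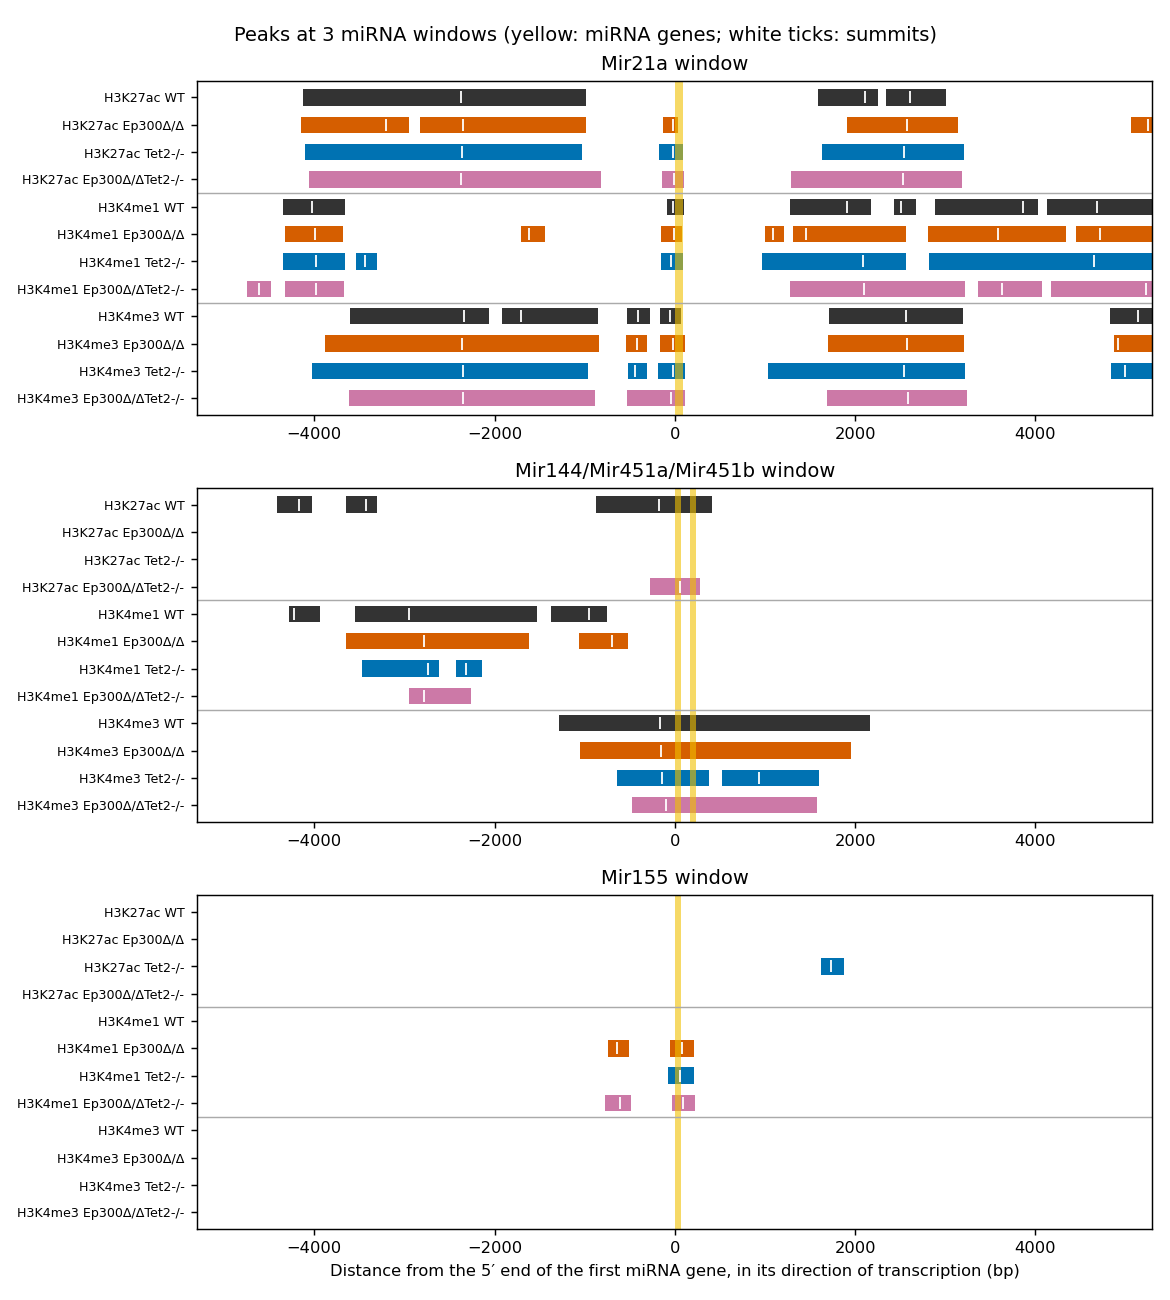
Bars are peaks of the 12 lists (rows, by mark and genotype) at the Mir21a, Mir144/Mir451a, and Mir155 windows, placed by distance in bp from the start of the first miRNA gene in its direction of transcription, with white ticks at summits and miRNA genes in yellow. Mir21a has a broad acetylated region upstream of the gene in all 4 genotypes and a narrow peak on the gene in 9 lists, Mir144 has H3K27ac in 2 genotypes but H3K4me3 in 4, and Mir155 has no WT peak.

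Of 22 genes known for blood formation, 20 were found, in 13 windows. H3K27ac was called in all 4 genotypes at 1 of the 6 windows without a coding start and at 4 of the 7 over one, and in at least 1 genotype at 3 and 5 of them. Over all windows the mark was called in all 4 genotypes at 21 of 563 and 154 of 291, and in at least 1 at 74 and 195. Over coding starts, H3K27ac was present in all 4 genotypes at Mir142, Mir150, Mir22, and Mir146b. Mir142 (chr11:87751841-87761955), a miRNA of most blood cells, was reached by a peak with a WT fold of 62.9 (percentile 99.8) whose summit lies outside the window in all 4 lists. The strongest peaks with a summit inside it stood at percentiles 83.6 in WT, 95.3 in Ep300Δ/Δ, 84.4 in Tet2-/-, and 79.1 in Ep300Δ/ΔTet2-/- cells. Its window also holds the starts of Tspoap1 and of the host lncRNA Mir142hg. Mir22, whose product is known to target Tet2 mRNA, had folds of 39.6, 14.6, 25.2, and 17.9 in a window with the start of Tlcd2 and of its host Mir22hg. Mir150, of mature lymphocytes, had 27.6, 18.1, 25.2, and 16.8, in a window with the start of the ribosomal protein gene Rpl13a. Mir146b had 23.5, 15.8, 10.2, and 10.6.

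Other blood miRNA windows held methyl marks without acetylation, no mark, or acetylation in some genotypes. Mir126a, of stem cells and endothelium, and Mir130a, of progenitors, had H3K4me1 and H3K4me3 in all 4 genotypes and H3K27ac in none. Both windows hold a coding start (of Egfl7 and of Gm19426), so their peaks cannot be given to the miRNA. Both pairs of Mir181a and Mir181b, which act in lymphocyte development, and Mir146, which damps NF-κB signaling, had no peak in any of the 12 lists. The Mir181c/181d window, which holds the start of Nanos3, was acetylated in Ep300Δ/Δ cells only, with a fold of 3.66. The red cell pair Mir144 and Mir451a held H3K4me3 in all 4 genotypes, with the highest fold at 27.3 in WT, 21.8 in Ep300Δ/Δ, 15.2 in Tet2-/-, and 11.4 in Ep300Δ/ΔTet2-/- cells. H3K27ac was called there in WT (4.91) and in Ep300Δ/ΔTet2-/- cells (5.49) and not in the other two. The Ep300Δ/ΔTet2-/- summit lay 57 bp into Mir144, within the sequence shown above. Mir155 had H3K27ac in Tet2-/- only, at 4.50 (percentile 23.6), with its summit 1729 bp downstream of the gene start. That call was absent with lists of equal length and with a −log10 q of at least 5.

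The miR-99, let-7, and miR-125 clusters are known for their expression in blood stem cells. Of their 5 windows, 3 without and 2 over a coding start, none held H3K27ac in any genotype. Over all windows 74 of 563 and 195 of 291 held it in at least 1 genotype, so 0 of 5 does not set these clusters apart. Mir125b-1 and Mir99a/let-7c-1 had no peak at all. Mir125b-2 had H3K4me3 in all 4 genotypes without H3K4me1 or H3K27ac. Mir99b/let-7e/Mir125a, whose window includes the start of Spaca6, had H3K4me1 and H3K4me3 in all 4 genotypes. Mir100/let-7a-2 had H3K4me1 in Tet2-/- and Ep300Δ/ΔTet2-/- cells only. The depth of these lists cannot show that acetylation is absent, only that no peak was called.

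Of 6 Hox miRNA windows, 2 were acetylated, both among the 5 over a coding start, a class in which 195 of 291 windows held H3K27ac in at least 1 genotype. Mir10a, beside Hoxb4, was so in all 4 genotypes, with folds of 5.92 in WT, 5.95 in Ep300Δ/Δ, 4.65 in Tet2-/-, and 5.16 in Ep300Δ/ΔTet2-/- cells. Its number of H3K27ac peaks was 1, 3, 1, and 3 in the same order. Mir196b, inside the Hoxa9 gene, was acetylated in WT (5.32), Ep300Δ/Δ (5.71), and Ep300Δ/ΔTet2-/- cells (4.43) and not in Tet2-/- cells, where H3K4me1 and H3K4me3 were still called. Both windows hold coding starts, so peaks cannot be given to the miRNA or to the Hox gene.

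In the growth control list, the windows of Mir25/93/106b, Mir15b/16-2, and Mir34b/34c lie over a coding start, so their peaks cannot be given to the miRNA. The Mir17 to Mir92-1 cluster, which drives proliferation, was acetylated in all 4 genotypes, with folds of 14.8 in WT, 10.5 in Ep300Δ/Δ, 9.24 in Tet2-/-, and 3.55 in Ep300Δ/ΔTet2-/- cells. Within their lists these were at percentiles 83.2, 77.3, 67.4, and 7.06, and the last was lost when a −log10 q of at least 5 was asked. H3K4me3 in the same window was called in all 4, with highest folds of 49.0, 52.3, 29.6, and 25.7. The related Mir25/93/106b cluster inside Mcm7 had H3K27ac in all 4 genotypes. Its strongest peak (38.9 in WT, 19.2 in Ep300Δ/ΔTet2-/- cells) has its summit outside the window, and the peak with a summit inside had folds of 3.89 in WT, 6.28 in Ep300Δ/Δ, 5.23 in Tet2-/-, and 6.82 in Ep300Δ/ΔTet2-/- cells. Mir15b/16-2, in a window with the start of Smc4, had 41.2, 28.9, 17.5, and 51.9. Mir15a/16-1, which make a miRNA of the same seed and restrain Bcl2, lie without a coding start and had no peak in any list. The Mir23a/27a/24-2 cluster was acetylated throughout (21.9, 16.5, 17.5, and 16.2, the Tet2-/- summit lying outside the window, with 16.7 inside), whereas its paralog Mir23b/27b/24-1 held no H3K27ac in any genotype and H3K4me1 in Tet2-/- and Ep300Δ/ΔTet2-/- cells only. Mir29a/29b-1 had H3K27ac in Ep300Δ/Δ only, at percentile 5.23 of its list and with a q above 0.05. Mir34a had no peak, and Mir34b/34c, targets of p53, had both methyl marks and no acetylation.

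**Figure D3:**
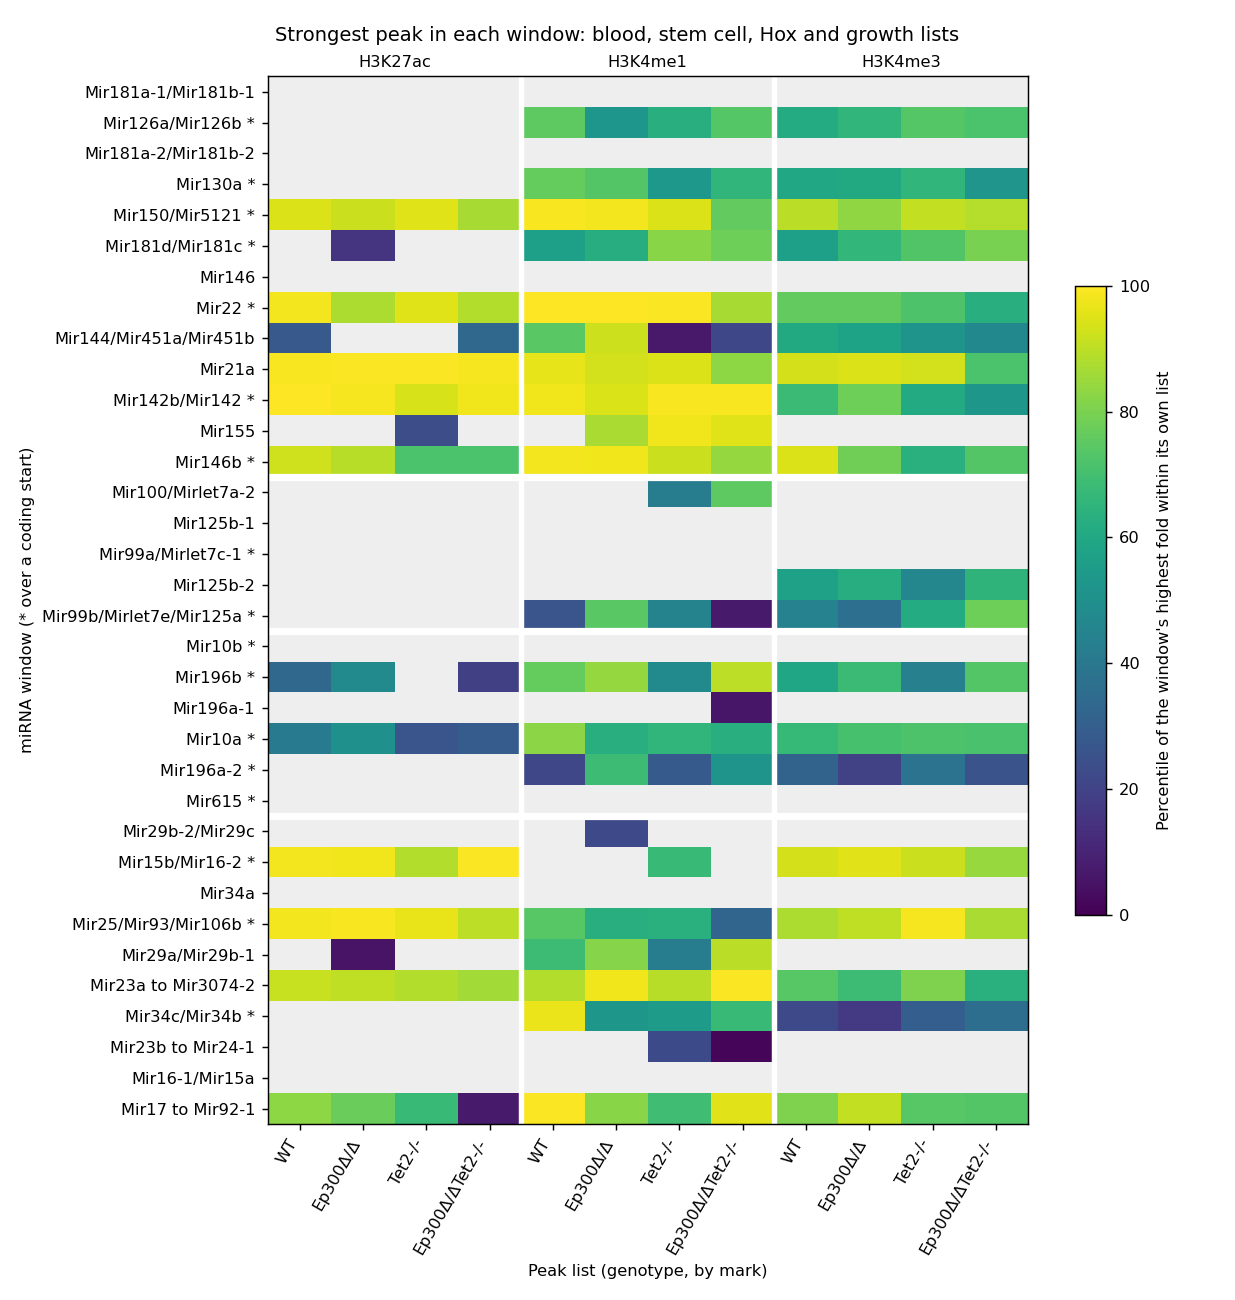
Rows are the windows of the blood, stem cell, Hox, and growth lists, an asterisk marks a coding start in the window, and columns are the 12 lists. Color gives the percentile of the window's highest fold within its own list and grey means no peak (a peak may reach into a window with its summit outside), with Mir142, Mir21a, Mir22, and Mir23a to Mir3074-2 colored in all columns and Mir181a-1, Mir146, and Mir16-1/Mir15a grey in all.

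Seeds shared by several genes were compared next, over 19 seed families, counting only autosomal genes whose mature strand was matched in RefSeq. Genes without a match were left out, Mir23b and let-7a-2 among them, and the miR-99 family was not scored. Of the 19 families, 17 had more than 1 window. Windows with and without a coding start are pooled here, although 154 of 291 and 21 of 563 of them were acetylated in all 4 genotypes. The counts therefore describe the matched genes and do not set the families apart. Of 8 windows whose RefSeq mature strand has the let-7 seed GAGGUAG, 1 was acetylated in all 4 (Mirlet7i, with folds of 19.2, 14.1, 37.5, and 26.6 in WT, Ep300Δ/Δ, Tet2-/-, and Ep300Δ/ΔTet2-/- cells) and 7 in none. The miR-146 seed came from Mir146b, over a coding start and acetylated in all, and Mir146, without one and acetylated in none. The miR-15/16 seed AGCAGCA had 2 windows acetylated in all and 5 in none, with 2 of the 7 over a coding start. The miR-17 seed AAAGUGC had 2 windows, 1 of them over a coding start, both acetylated in all 4. The families of miR-30, miR-103, miR-148, and miR-34 had no acetylated window among their matched genes. A peak at a gene is no measure of how much mature miRNA is made.

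The miRNAs of other tissues were counted in the same way. Of 20 windows without a coding start that hold miRNAs known for muscle, liver, brain, pancreas, epithelium, or embryonic stem cells, none held H3K27ac in any genotype, whereas 5, 6, 4, and 5 of them held H3K4me3 in WT, Ep300Δ/Δ, Tet2-/-, and Ep300Δ/ΔTet2-/- cells. Over all windows without a coding start the H3K27ac share was 5.86% to 10.1% and the H3K4me3 share 11.9% to 14.0%, so a count of 0 of 20 does not set these windows apart in H3K27ac, and the H3K4me3 counts were not tested. Of 5 other-tissue windows over a coding start, 1, 1, 2, and 1 held H3K27ac in the same order, where 57.0% to 63.9% of all such windows did. Mir9-2, a brain miRNA in a window without a coding start, had narrow peaks on its hairpin in 4 lists. The array of 71 genes inside Sfmbt2 fell into 1 window of 61617 bp and held no peak in any of the 12 lists. The authors kept only reads of high mapping quality, and how many reads this leaves at repeated copies was not tested. The imprinted chromosome 12 cluster had 1 acetylated window of 2 without a coding start, in Tet2-/- cells, where 44 of 563 such windows were acetylated. That call (Mir341/Mir1188/Mir370, fold 4.25) was absent with lists of equal length and with a −log10 q of at least 5. A count of 1 of 2 was not tested.

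The study examined H3K27ac after p300 loss in Tet2-null cells, and here Ep300 deletion was compared on both backgrounds. Windows were called lost or gained by the presence of a peak. Of 57 windows without a coding start that held H3K27ac in WT, 26 (45.6%, interval 32.4% to 59.3%) had no peak in Ep300Δ/Δ, against 49.6% of the tiles. In the other direction, 4 of 35 (11.4%) were gained, against 13.9% of tiles. From Tet2-/- to Ep300Δ/ΔTet2-/-, 20 of 44 were lost (45.5%, tiles 48.1%) and 9 of 33 gained (27.3%, tiles 22.7%). All 4 shares lay near the background, which their intervals included. Over coding starts, 21 of 186 windows lost H3K27ac from WT to Ep300Δ/Δ (11.3%, tiles 11.5%) and 4 of 169 gained it (2.37%, tiles 4.02%). From Tet2-/- to Ep300Δ/ΔTet2-/-, 13 of 172 lost it (7.56%, interval 4.09% to 12.6%, tiles 13.1%) and 7 of 166 gained it (4.22%, tiles 4.64%).

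The windows lost were then placed by the fold percentile of their strongest peak. Of the 26 windows lost from WT to Ep300Δ/Δ, 25 had their strongest WT peak below the middle of the WT list, with a median percentile of 23.8, against 12 of the 31 windows kept. All 26 held H3K4me1 in WT and 24 held it in Ep300Δ/Δ cells. H3K4me3 was in 10 of the 26 in WT and in 10 in Ep300Δ/Δ cells, not all of them the same windows. It was in 24 and 23 of the 31 windows kept. Of the 20 windows lost from Tet2-/- to Ep300Δ/ΔTet2-/-, 14 held H3K4me1 in each genotype, and 8 and 5 held H3K4me3. The 4 windows gained from WT to Ep300Δ/Δ (Mir6933, Mir5107, Mir7053, and Mir29a/29b-1) had a median percentile of 10.8 in the Ep300Δ/Δ list. None of the 4 was called with a −log10 q of at least 5. The lists differ in length, and this moved with the result. When the H3K27ac lists were all shortened to the 17846 peaks with the highest −log10 q, which is another order than by fold, 6 of 27 windows were lost from WT to Ep300Δ/Δ (22.2%, tiles 38.0%) and 5 of 26 gained (19.2%, tiles 19.7%). From Tet2-/- to Ep300Δ/ΔTet2-/-, 10 of 31 were lost (32.3%, against 1388 of 4619 tiles) and 12 of 33 gained (36.4%, tiles 33.5%). With lists of equal length, losses among windows thus numbered 6 against 5 gains on the WT background, where more tiles were still lost than gained, and 10 against 12 on the Tet2-/- background.

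**Figure D4:**
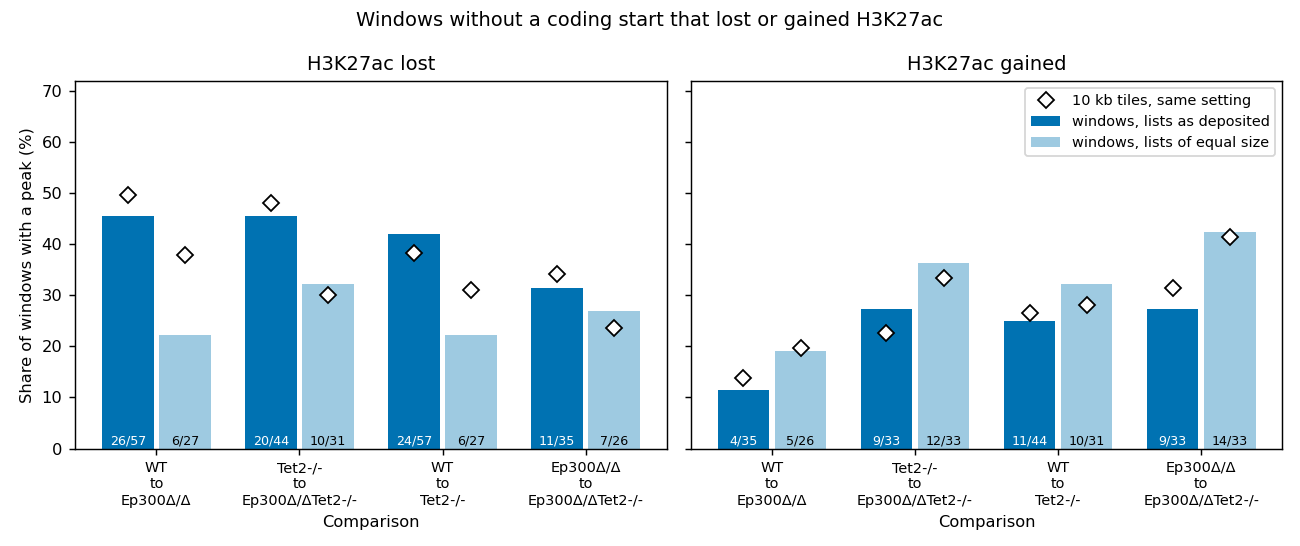
Bars give the percentage of acetylated windows without a coding start that lost (left) or gained (right) H3K27ac in 4 comparisons, dark for lists as deposited and light for lists of equal length, with counts at their base and diamonds for 10-kb tiles. From WT to Ep300Δ/Δ the lost share is 45.6% as deposited and 22.2% with equal lists.

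The comparisons of genotypes with and without Tet2 also gave shares near the background. From WT to Tet2-/-, 24 of 57 windows lost H3K27ac (42.1%, tiles 38.4%) and 11 of 44 gained it (25.0%, tiles 26.6%). With lists of equal length these were 6 of 27 (22.2%, tiles 31.0%) and 10 of 31 (32.3%, tiles 28.1%). From Ep300Δ/Δ to Ep300Δ/ΔTet2-/-, 11 of 35 lost it (31.4%, tiles 34.1%) and 9 of 33 gained it (27.3%, tiles 31.5%), and with lists of equal length 7 of 26 (26.9%, tiles 23.6%) and 14 of 33 (42.4%, tiles 41.5%). With a −log10 q of at least 5, losses and gains numbered 11 and 5 from WT to Tet2-/-. From Ep300Δ/Δ to Ep300Δ/ΔTet2-/- they numbered 3 and 7. These comparisons share libraries with those above and are not independent of them.

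The methyl marks were scored in the same way, and no difference from H3K27ac was tested. H3K4me1 was lost in 44 of 200 windows from WT to Ep300Δ/Δ (22.0%, tiles 23.0%) and gained in 29 of 185 (15.7%, tiles 15.4%), the gains numbering 12 with a −log10 q of at least 5. From Tet2-/- to Ep300Δ/ΔTet2-/- it was lost in 24 of 200 (interval 7.84% to 17.3%, tiles 19.0%) and gained in 27 of 203 (13.3%, tiles 14.6%), but with a −log10 q of at least 5 these losses and gains numbered 41 and 14. H3K4me3 was lost in 7 of 70 (10.0%, interval 4.12% to 19.5%, tiles 20.9%) and gained in 7 of 70 (10.0%, tiles 13.2%) from WT to Ep300Δ/Δ, but lost in 3 with lists of equal length and gained in 1 with the stricter q. From Tet2-/- to Ep300Δ/ΔTet2-/- it was lost in 17 of 79 (21.5%, tiles 17.2%) and gained in 5 of 67 (7.46%, tiles 12.1%). These losses numbered 10 with the stricter q, 9 with lists of equal length, and 8 with 2000 bp windows.

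Over the 4 genotypes, 74 windows without a coding start were acetylated in at least 1. Their number was 45 with a −log10 q of at least 5 and 50 with lists of equal length. In 21 of the 74 (28.4%, tiles 25.1%) H3K27ac was called in all 4. They include Mir21a, Mir339, Mirlet7i, Mir671, Mir6516, the Mir23a cluster, and the Mir17 cluster. For H3K4me1, 141 of 253 windows were marked in all 4 genotypes (55.7%, tiles 50.6%), and for H3K4me3 58 of 88 (65.9%, tiles 54.4%). Acetylation was called in WT only in 12 windows (16.2%, tiles 20.7%), one of them Mir32, inside Tmem245, at a fold of 6.32, and in Tet2-/- only in 9 (12.2%, tiles 12.7%), among them Mir155 and Mir6363. Mir6363 had the highest fold of any window lost from Tet2-/- to Ep300Δ/ΔTet2-/-, at 16.6 (percentile 87.1), with a peak that reached only into the edge of the window and a summit outside it, 5477 bp from the gene start. It was acetylated in Tet2-/- only, also with equal lists and with a −log10 q of at least 5, while H3K4me3 was called at the same place in all 4 genotypes (highest folds 48.5, 33.9, 51.5, and 35.9).

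**Figure D5:**
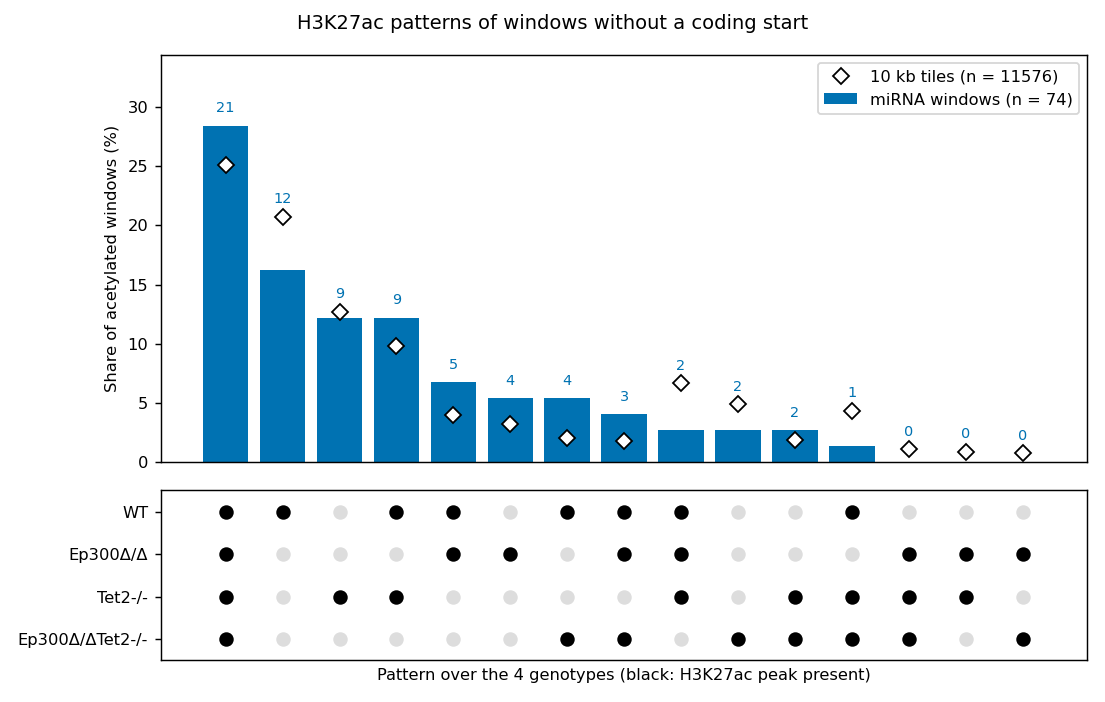
Bars give the percentage of the 74 acetylated windows without a coding start that showed each pattern of H3K27ac over the 4 genotypes (black dots below), with the number of windows above, and diamonds give the same for 11576 acetylated 10-kb tiles. The most frequent pattern is a peak in all 4 genotypes (21 windows), followed by WT only (12 windows).

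Both backgrounds lost H3K27ac with Ep300 at 9 windows without a coding start: Mir1957a, Mir6417, Mir8115, Mir7233, Mir7062, Mir1190, Mir6962, Mir194-2/192, and Mir1192. They are 12.2% of the 74 acetylated windows, and 9.80% of acetylated tiles had the same pattern, so the count lies near the background. No window gained it on both. Mir194-2/192, known from gut and liver, had the highest WT fold of these at 7.37 (percentile 55.4) and 4.53 in Tet2-/- cells. H3K4me3 was called there in no genotype. H3K4me1 was called at the acetylated site in all but Ep300Δ/Δ cells, whose only H3K4me1 peak in the window lay near the gene start, at percentile 0.999 and with a q above 0.05. Mir7062, inside Adam8, had 6.65 in WT and 6.28 in Tet2-/- cells and held H3K4me1 and H3K4me3 in all 4 genotypes, the H3K4me3 summits lying outside the window except in Ep300Δ/Δ cells. Mir1957a, inside Slc2a1, the gene of a glucose transporter, had 5.32 and 8.58. Of the 9 windows, 3 (Mir1957a, Mir8115, and Mir7062) kept this pattern with lists of equal length and 6 with a −log10 q of at least 5. At 4 windows (Mir3473f, Mir7688, Mir144/Mir451a/Mir451b, and Mir6954) H3K27ac was present in WT and Ep300Δ/ΔTet2-/- cells and absent in the other 2 (5.41%, tiles 2.08%). With lists of equal length all 4 were acetylated in Ep300Δ/ΔTet2-/- only.

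Motifs of blood transcription factors were searched in the 151 bp around H3K27ac summits, on both strands: AGATAA for GATA factors, GGAAGT for ETS factors, and TGTGGT for RUNX factors, none of which contains another. Of 96 WT summits of peaks that overlap windows without a coding start, 8 held AGATAA (8.33%, interval 3.67% to 15.8%). Such a summit can lie outside the window. Among all 29012 WT summits, which include those at coding starts, the share was 3.76%. For GGAAGT the shares were 13.5% and 9.54%, and for TGTGGT 16.7% and 10.0%, each within the interval of the miRNA summits. The strongest summit of the Mir23a window held a match to TGTGGT. The summits on Mir21a, Mir144, and Mir155 held none of the 3. In Ep300Δ/ΔTet2-/- cells 4 of 44 summits held AGATAA (9.09%, interval 2.53% to 21.7%, all summits 3.75%) and 4 held GGAAGT (9.09%, all summits 10.6%). In Tet2-/- cells GGAAGT was also less frequent at the window summits (8.33%, interval 3.12% to 17.3%) than over all summits (10.2%). In Ep300Δ/Δ cells it was more frequent (14.8%, interval 6.98% to 26.2%, all summits 9.17%). A match describes letters and is not a site of binding.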

How the data were processed

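The 12 narrowPeak lists hold autosomal and other peaks of H3K27ac, H3K4me1, and H3K4me3, 1 library per genotype and mark. Per the submitters' notes and the methods, reads were trimmed with Cutadapt 1.15, aligned to mm10 with BWA 0.7.13, cleared of duplicates with Picard, and filtered on mapping quality, and MACS2 2.1.1.20160309 called peaks against an H3 library, kept by overlap of pseudo-replicates at a stated q under 0.05. The authors deposited for each peak a score, which was not used here, the fold enrichment at the summit, and the −log10 p and −log10 q, all relative to 1 list. The methods give paired-end and the labels single-end reads. The 8 samples without a peak list (H3 and H3K27me3) were not analysed here.

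From these files, windows, 10-kb tiles (under 5000 unknown bases, outside the windows), and starts were taken from GENCODE release 21. A window held a mark with 1 bp of overlap. The percentile of a peak is its rank by fold among all peaks of its list, autosomal or not. Shares have exact Clopper-Pearson 95% intervals. Named windows hold a gene of the blood, stem cell, Hox, or growth lists, or had one of the 5 highest H3K27ac folds in WT or among the windows lost or gained with Ep300 on either background. Others named by pattern, the seed families, and the narrow peaks on hairpins were chosen after their values were seen. The members and lists were chosen with earlier results of these data known. Alternatives were a −log10 q of at least 5, lists of equal length (each mark's lists cut by −log10 q to the shortest), 2000 bp windows, 200 bp of overlap, coding starts at gene ends only, and, chosen after seeing the data, peaks with q of at most 0.05. Python 3.11.15, pandas 2.3.3, scipy 1.17.1, and bedtools 2.31.1 were used, and the window scoring was tested on simulated data. One list of marker genes is not reported here.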

Additional observations from a re-analysis of the deposited data

Results flagged for a closer look

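Some windows without a coding start changed in opposite directions when Ep300 was deleted with and without Tet2. H3K27ac was lost from WT to Ep300Δ/Δ and gained from Tet2-/- to Ep300Δ/ΔTet2-/- at 4 windows (Mir3473f, Mir7688, Mir144/Mir451a/Mir451b, and Mir6954, 5.41% of acetylated windows, tiles 2.08%) and the reverse at none. With lists of equal length the first pattern was seen at 0 windows, and with a −log10 q of at least 5 at 2. H3K4me1 did the first at 4 windows (Mir6938, Mir874, Mir1943, and Mir6363, 1.58% of marked windows, tiles 1.75%) and the reverse at 1 (Mir1983, 0.395%, tiles 1.46%). H3K4me3 was gained from WT and lost from Tet2-/- at 2 windows (Mir7057 and Mir6391, 2.27%, tiles 0.959%). With 1 library per genotype and mark, these differences were not tested.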

How the results depend on the processing

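Of 114 values of 19 counts under 6 alternatives, 95 stayed within 1.5 times the count as deposited. With a −log10 q of at least 5, H3K27ac gains from WT to Ep300Δ/Δ numbered 0, gains from Tet2-/- to Ep300Δ/ΔTet2-/- 4, losses and gains from WT to Tet2-/- 11 and 5, and losses from Ep300Δ/Δ to Ep300Δ/ΔTet2-/- 3. Under the same setting H3K4me1 gains from WT to Ep300Δ/Δ numbered 12, H3K4me1 losses and gains from Tet2-/- to Ep300Δ/ΔTet2-/- 41 and 14, H3K4me3 gains from WT to Ep300Δ/Δ 1, and H3K4me3 losses from Tet2-/- to Ep300Δ/ΔTet2-/- 10. With lists of equal length, WT held H3K27ac in 27 windows, and H3K27ac losses numbered 6 from WT to Ep300Δ/Δ, 10 from Tet2-/- to Ep300Δ/ΔTet2-/-, 6 from WT to Tet2-/-, and 7 from Ep300Δ/Δ to Ep300Δ/ΔTet2-/-, where gains numbered 14. H3K4me3 losses then numbered 3 from WT to Ep300Δ/Δ and 9 from Tet2-/- to Ep300Δ/ΔTet2-/-. With 2000 bp windows, H3K4me3 losses from Tet2-/- to Ep300Δ/ΔTet2-/- numbered 8. The stricter q and the equal lengths keep fewer peaks. Counts stayed within 1.5 times with 200 bp of overlap, with coding starts at gene ends, and with q of at most 0.05, the last chosen after seeing the data. No paired analysis was possible because each genotype and mark has 1 library. Read depth, and so the reach of each list, is unknown.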
